A study of Mus musculus with 4 samples.

Results

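The clustered protocadherin genes were taken as the protein-coding genes of GENCODE release M21 (mm10) whose symbols begin with Pcdha, Pcdhb or Pcdhg. This rule gave 57 gene records of 21951, all on chromosome 18 and all on the plus strand, with 14 in the Pcdha cluster, 22 in Pcdhb and 21 in Pcdhg. The release gives the symbol Pcdha11 to 2 of these records. Eya1 is a transcriptional coactivator without DNA-binding activity of its own, and its occupancy was measured by ChIP-seq on whole kidneys of E13.5 mouse embryos whose Eya1 locus was tagged by knockin with HA and FLAG (Eya1HA-FLAG). Chromatin from 80 pooled kidneys per assay was precipitated through the FLAG tag, so each of the 2 Eya1 ChIP replicates combines all cell types of the organ and many embryos. An input sample and an IgG sample were the controls, and their signal was not analysed here. Each replicate is a list of peak positions without heights, scores or read counts, so the depth behind a peak is unknown. A gene without a listed peak is therefore a gene at which none was called in that list.

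Clustered protocadherins are cadherin-like adhesion proteins of the cell surface, best known for giving single neurons different surface identities. In the Pcdha and Pcdhg clusters each gene has its own promoter and its own large variable exon, which is spliced to a shared set of constant exons, whereas Pcdhb genes lack constant exons. Most alternate promoters are used by choice in individual neurons, with the boundary factor CTCF bound at promoters and enhancers, while C-type genes (Pcdhac1, Pcdhac2, Pcdhgc3, Pcdhgc4 and Pcdhgc5) are under different control. Downstream of the Pcdha constant exons lies a known enhancer, HS5-1, at which CTCF and the repressor REST are known to bind. Recognition motifs in Eya1 peaks were examined in the study, among them that of REST (RE1), and the question here was where Eya1 peaks lie among these promoters and regulatory stretches, and whether they hold RE1.

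The region examined ran from 50 kb before Pcdha1 to 50 kb after the last constant exon of Pcdhg (mm10, chr18:36880184-37891873, 1012 kb). Across it, replicate 1 had 1 peak and replicate 2 had 2 peaks, as shown in the map of the clusters. The replicate 1 peak and 1 replicate 2 peak overlapped at the start of Pcdhgc3, and the other replicate 2 peak lay between the Pcdha and Pcdhb clusters, outside every member gene. The Pcdhb cluster, which spans 259.5 kb, held 0 peaks in either list, and so did the 257.5 kb of the Pcdha cluster from the Pcdha1 promoter to the last constant exon. The Pcdhg cluster, the shortest at 180.1 kb, held the shared site. In peaks per Mb, the region had 0.988 in replicate 1 and 1.98 in replicate 2, compared with 1.51 and 1.47 for chromosome 18 as a whole. With so few peaks, these densities are given as a description only.

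**Figure D1:**
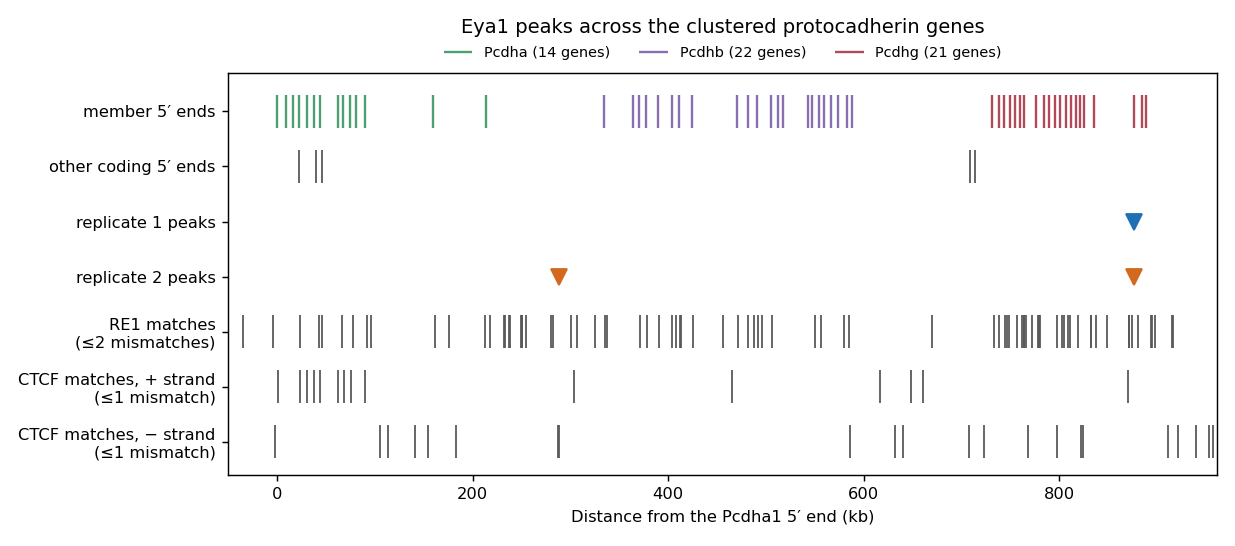
Positions across the 3 clusters, as the distance in kb from the 5′ end of Pcdha1 (x axis). Rows show the 5′ ends of the 57 members coloured by cluster, the 5′ ends of other protein-coding genes, the peaks of each list (triangles), and matches to RE1 (at most 2 mismatches) and to the CTCF motif by strand (at most 1 mismatch). Both lists have a peak at the right-hand end of Pcdhg, and replicate 2 has another between Pcdha and Pcdhb.

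Of the 57 members, 1 had a peak within 1 kb of its 5′ end (1.75%), and it was the same gene, Pcdhgc3, in both lists. Across all protein-coding genes, 18.7% had such a peak in replicate 1, 13.2% in replicate 2 and 21.5% in the merged lists. Chromosome 18 was not poor in occupied promoters, with 24.0% of its 513 protein-coding genes in replicate 1 and 16.6% in replicate 2. The count for the members was thus below the share of genes with a peak elsewhere, and no test was made of it, since neighbouring members lie within the same stretch of chromosome and are not independent of each other. By promoter type, the occupied gene was 1 of the 5 C-type genes, and 0 of the other 52 members had a peak. The same single gene was found when the distance was set to 500 bp, 2 kb or 5 kb. The next nearest members were the other C-type genes of the cluster, Pcdhgc4, whose 5′ end was 7343 bp beyond the replicate 1 peak and 8459 bp beyond that of replicate 2, and Pcdhgc5, at 11777 and 12893 bp. The distance to the nearest replicate 1 peak was largest for Pcdhb1, at 520396 bp, and that to the nearest replicate 2 peak was largest for Pcdhb21, at 292845 bp. Variable exons of a cluster resemble each other in sequence, and how reads that match several places were treated depends on the aligner, which was not resolved. Its part in the low count was not tested.

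**Figure D2:**
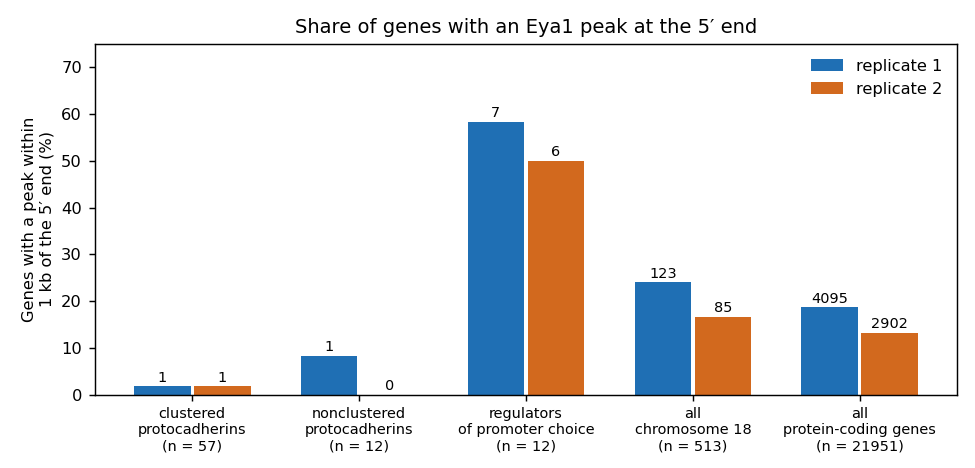
Share of genes with an Eya1 peak within 1 kb of the 5′ end (y axis, percent) in replicate 1 (blue) and replicate 2 (orange), for 5 groups of genes on the x axis with their size. Numbers above the bars are counts of genes. The clustered protocadherins stand at 1.75% in both lists, below all protein-coding genes at 18.7% and 13.2%.

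Pcdhgc3, a C-type gene of the Pcdhg cluster (ENSMUSG00000102918.1, 5′ end at 37806364), carried the site found in both replicates. The replicate 1 peak spanned chr18:37806358-37807736 (1379 bp). It began 6 bp upstream of the annotated 5′ end and reached 1373 bp into the variable exon, which is 3380 bp long. The replicate 2 peak spanned chr18:37806466-37806620 (155 bp), starting 102 bp downstream of the 5′ end, and lay wholly inside the replicate 1 peak, of which it covered 11.2%. Both peaks overlapped UTR and coding sequence of the variable exon. The replicate 1 peak was wider than the median of its list (1069 bp), with 71.9% of its peaks narrower, and the replicate 2 peak was narrower than the median of its list (188 bp), with 31.4% of its peaks narrower. The lists as a whole differ in width in the same direction. An antisense transcript, BC037039, crosses the same sequence on the minus strand, and its start was 186 bp from the replicate 1 peak and 1302 bp from the replicate 2 peak. Peak lists carry no strand, so occupancy of the Pcdhgc3 and BC037039 starts cannot be told apart in replicate 1. Pcdhgc3 was the nearer start in both lists.

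Neither Pcdhgc3 peak held RE1. With at most 2 mismatches, 0 matches were found in the 200-bp window on either midpoint, where 5.42% of all replicate 1 peaks and 16.8% of all replicate 2 peaks had one. In the whole peaks there were also 0, compared with 17.5% and 17.4% of peaks in the lists. Even with 3 mismatches neither whole peak held a match, compared with 69.7% of replicate 1 peaks and 34.5% of replicate 2 peaks, so the 1379-bp peak was among the minority of its list without one. The nearest match with 2 mismatches was 1360 bp upstream of the replicate 1 peak. The CTCF motif, searched with at most 1 mismatch, was also not found in either peak or within 1500 bp of it. The sequence under the peaks was rich in G and C, at 59.0% in replicate 1 and 60.6% in replicate 2, and the replicate 1 peak contained 98 CpG dinucleotides.

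CpG content differed between members and between clusters, as drawn in the plot of CpG content. In the first 1000 bp from the 5′ end, Pcdhgc3 had 80 CpG dinucleotides, the second highest number among the members. The highest number, 90, was in Pcdhac2, the C-type gene closest to the Pcdha constant exons, which had no peak within 74751 bp in replicate 2 or 398961 bp in replicate 1. The median was 44.5 for Pcdha (range 33 to 90), 43 for Pcdhg (range 23 to 80) and 19 for Pcdhb (range 8 to 42). Across all protein-coding genes the median was 36, and it was 68 for genes with a merged peak within 1 kb and 24 for those without. Only Pcdhgc3 and Pcdhac2, 2 of the 57 members, were above the median of genes with a peak. In the 300 bp around the 5′ end (250 bp before to 50 bp after), where the ratio of observed to expected CpG was used, Pcdhgc3 was at 0.778 and 8 members were higher. The median ratio was 0.521 for the members, 0.525 for all protein-coding genes and 0.829 for genes with a peak.

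**Figure D3:**
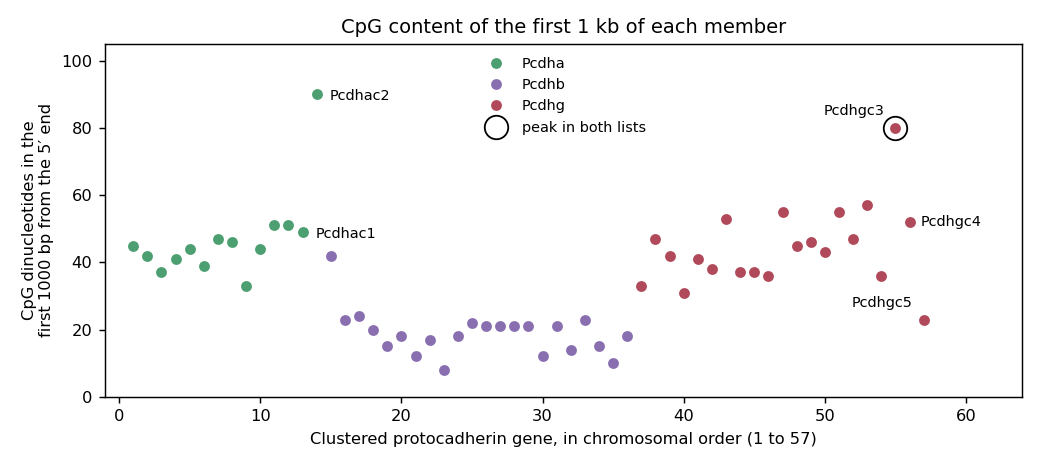
Number of CpG dinucleotides in the first 1000 bp from the 5′ end (y axis) for each of the 57 members in chromosomal order (x axis), coloured by cluster, with the C-type genes named. The ring marks Pcdhgc3, the member with a peak in both lists, at 80. Pcdhac2 is higher at 90 and has no peak, and Pcdhb genes lie between 8 and 42.

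The peak between the Pcdha and Pcdhb clusters was listed in replicate 2 only, at chr18:37218254-37218389 (136 bp). It lay 30.6 kb downstream of the last base of the Pcdha constant exons, 74.8 kb downstream of the Pcdhac2 5′ end and 46.5 kb upstream of Pcdhb1. It overlapped no annotated exon and lay in introns of Gm42416, Gm37013 and Gm37388, gene models that run from the Pcdha cluster into the Pcdhg cluster. The nearest annotated transcript start, that of the noncoding gene Gm10544, was 39732 bp away, so the peak was distal to every start. In the list of replicate 2, 19.2% of peaks were narrower, and the closest replicate 1 peak was 473712 bp away.

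With at most 2 mismatches, RE1 was absent from this peak. In windows placed 1 kb to either side of replicate 2 peaks, RE1 was found in 1.68%. Of the 413 distal peaks listed in replicate 2 alone, 324 held RE1 and 89 did not, and the inter-cluster peak is among the latter. The high share belongs to the replicate 2 list, since of 57 distal peaks listed in replicate 1 alone, 2 held RE1. A match with 3 mismatches, on the minus strand, was present at chr18:37218330-37218346, with its centre 16.5 bp from the peak midpoint. This setting is permissive, since with at most 3 mismatches a match was present in 31.5% of the windows on replicate 2 peaks and in 13.8% of those 1 kb away (20.7% and 14.1% in replicate 1), so it is given as a position only. Among the 89 distal peaks without RE1 at 2 mismatches, 37 had a match with exactly 3.

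Matches to the CTCF motif stood on both sides of the inter-cluster peak. Both were on the minus strand with 1 mismatch, at chr18:37217466-37217479 and chr18:37218432-37218445, with 952 bp between them. Between the first match and the peak lay 774 bp, and between the peak and the second match lay 42 bp. The plot of both sites shows this arrangement. The HS5-1 enhancer also lies downstream of the Pcdha constant exons, but no enhancer annotation was used here, and the peak was not assigned to it.

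**Figure D4:**
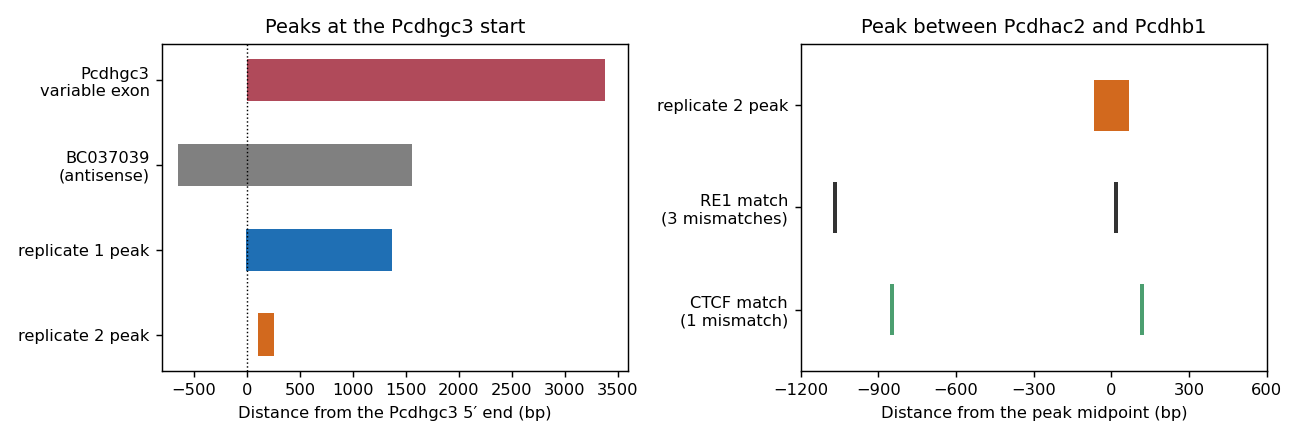
Left, the peaks of both replicates, the Pcdhgc3 variable exon and the antisense gene BC037039, as the distance in bp from the Pcdhgc3 5′ end. Right, the replicate 2 peak between Pcdhac2 and Pcdhb1 with RE1 matches of 3 mismatches and CTCF matches of 1 mismatch, as the distance in bp from the peak midpoint. The replicate 2 peak at Pcdhgc3 (155 bp) lies inside that of replicate 1 (1379 bp), and the inter-cluster peak (136 bp) lies between CTCF matches 952 bp apart.

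The same CTCF search was made at the members' own promoters, since the boundary factor is known to bind alternate Pcdha exons. Within 1 kb of the 5′ end, 9 of the 14 Pcdha genes had a match, compared with 0 of 22 Pcdhb genes, 1 of 21 Pcdhg genes (Pcdhgb7, on the minus strand) and 8.65% of all protein-coding genes. All 9 were alternate genes (Pcdha1, Pcdha4, Pcdha5, Pcdha6, Pcdha7, Pcdha8, Pcdha9, Pcdha12 and a Pcdha11 record), and each match lay on the plus strand inside the variable exon, 456 to 581 bp from the 5′ end (median 560 bp). Of the 9 matches, 6 had 0 mismatches. The pair of matches beside the inter-cluster peak was thus on the strand opposite to the 9 exon matches. The whole region held 37 CTCF matches with at most 1 mismatch (36.6 per Mb), and 15 were on the plus strand. The minus strand was thus the more common one, and the strand of the pair does not set it apart. No peak of either list lay at any of the 9 exon matches. The closest peaks were 186202 bp (replicate 1) and 197555 bp (replicate 2) from one of these 9. With 2 mismatches allowed, the motif was present within 1 kb of 29 members and of 53.2% of all protein-coding genes, so the comparison rests on the stricter setting. By cluster, these were 13 of 14 Pcdha, 9 of 22 Pcdhb and 7 of 21 Pcdhg genes. The count of 0 in Pcdhb therefore holds only for at most 1 mismatch.

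RE1 matches were not scarce in the clusters. The region held 81 matches with at most 2 mismatches, of which 55 were on the strand of the genes. Inside variable exons, taken as the annotated exon at the 5′ end, lay 32 matches. In Pcdhb6 and Pcdhb8 that exon ends before the match near the 5′ end, so those matches are not among the 32. Of the 81 matches, 7 had 1 mismatch. None had 0 mismatches. Of these 81 matches, 0 were inside a peak of either list and 0 were within 200 bp of one. Over the genome, 0.479% of such matches lay in a replicate 1 peak and 0.445% in a replicate 2 peak, so a count of 0 among 81 is close to the share elsewhere. Of the matches with at most 1 mismatch, 1.94% and 3.88% lay in peaks over the genome, and 0 of 7 did so here. At 3 mismatches, where 1 match of 680 lay under a peak, the shares over the genome were 0.308% and 0.102%. Those 7 included chr18:37092051-37092067 inside the Pcdhac1 variable exon, chr18:37184941-37184957 at the beginning of the last Pcdha constant exon, and chr18:37824769-37824785 shortly before the first Pcdhg constant exon. Within 1 kb of the 5′ end, RE1 was present in 15 of 57 members (26.3%), with 10 of 22 in Pcdhb, 4 of 21 in Pcdhg and 1 of 14 in Pcdha, compared with 19.5% of all protein-coding genes. The gene with a peak in both lists, Pcdhgc3, was not among those 15. In Pcdhb the matches recurred at a similar place. Those of Pcdhb4, Pcdhb5, Pcdhb6, Pcdhb7, Pcdhb8, Pcdhb10, Pcdhb11 and Pcdhb12 lay on the plus strand, 695 to 797 bp from the 5′ end. Because variable exons of a cluster resemble each other, such matches are not independent sites, and their share was not tested against that of all genes.

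Of the 6 other protein-coding genes of the region, 0 had a peak within 1 kb of the 5′ end. The shares over all protein-coding genes were 18.7% in replicate 1 and 13.2% in replicate 2, and 6 genes are too few to set against them. The models Gm42416, Gm37013 and Gm37388 span the Pcdhgc3 site and the replicate 2 peak between the clusters, so that their bodies held 1 peak in replicate 1 and 2 in replicate 2. Taf7, which encodes a subunit of the general transcription factor TFIID, and Slc25a2, which encodes a mitochondrial carrier, stand between the Pcdhb and Pcdhg clusters. Their nearest peaks were those at Pcdhgc3, at 162154 and 167613 bp in replicate 1. Diaph1, a formin gene that overlaps the downstream flank, had no peak in its body, and its 5′ end was 127740 bp from the replicate 1 peak.

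Nonclustered protocadherins, which are single genes with promoters of their own, were examined in the same way. Of 12, 1 had a peak within 1 kb of the 5′ end in replicate 1 (8.33%) and 0 did in replicate 2, compared with 18.7% and 13.2% of all protein-coding genes. This gene was Pcdh8, and it had a peak in both lists, with that of replicate 2 just beyond the 1 kb limit. The replicate 1 peak was 898 bp wide and lay 822 bp from the 5′ end, and the replicate 2 peak was 229 bp wide and lay 1318 bp from it.

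Genes of the factors known to take part in the choice of protocadherin promoters were also examined. Of 12 such genes, 7 had a peak within 1 kb of the 5′ end in replicate 1 (58.3%) and 6 in replicate 2 (50.0%), with 5 in both, compared with 18.7% and 13.2% of all protein-coding genes. Ctcf was among those in both lists, with peaks of 1620 and 309 bp. So were Smc3, a subunit of the cohesin ring, Nipbl, which loads cohesin, Wapl, which releases it, and Rest. Dnmt3b, a DNA methyltransferase, and Stag2, a cohesin subunit, were occupied in replicate 1 only, and Rad21, another cohesin subunit, in replicate 2 only, where its peak was 67 bp from the 5′ end. Setdb1 and Smchd1, which encode chromatin repressors, had their nearest replicate 1 peaks at 40915 and 140775 bp, and Smc1a and Stag1 also had none within 1 kb. Stag1 held 2 peaks in its body in each list, the nearest at 44861 bp (replicate 1) and 45996 bp (replicate 2) from its 5′ end. The paper had already reported Eya1 at the Rest promoter. This small list was chosen with earlier results of these data known and was not tested against other genes.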

How the data were processed

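Eya1 ChIP-seq peaks were analysed from the 2 replicate lists that the authors deposited, whose 3 columns give chromosome, start and end in mm10 and no score. In the study's methods, reads were aligned by Bowtie with its defaults, and MACS was run against the input or the IgG library with P value cutoffs that varied. The study then used the peaks common to both calls, and whether the deposited lists precede or follow that step was not resolved here. The submitters' processing notes name HISAT2 and mm10, and which aligner made these lists was not resolved. The cutoff of each list is not given in the sources used here, and neither control library was analysed. Samples were grouped by their titles.

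Positions are printed 1-based. Peaks were placed on GENCODE M21 genes and on GRCm38, with 0 peaks beyond a chromosome end. A gene was counted when a peak came within 1 kb of its 5′ end, and an overlap of 1 bp or more made peaks shared. RE1 (a 17-base consensus, at most 2 mismatches) and the CTCF motif (a 14-base consensus, at most 1 mismatch) were searched in the reference sequence on both strands. The window for RE1 was 200 bp around each midpoint, and whole peaks were searched as well. Mitochondrial peaks were left out, of which the replicate 2 list had 11 and the replicate 1 list 0. A match describes the reference sequence, and binding of REST or CTCF was not measured. Genes named are the members, the protein-coding genes of the region, 12 nonclustered protocadherins and 12 regulators of promoter choice. Motif content of the Pcdh8 peaks is not reported here. The members and lists were chosen with earlier results of these data known. With 1 group of 2 lists no test between conditions was possible, and values are descriptions. Scripts ran under Python 3.11.15 (numpy 2.4.6, pandas 2.3.3, matplotlib 3.10.9) and were tested on simulated data.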

Additional observations from a re-analysis of the deposited data

How the results depend on the processing

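Of 32 alternative values for 8 results, 26 kept the reported value or stayed within 1.5 times of it. Some of the 26 could not have differed, so this count is not a measure of robustness. Where 0 RE1 matches were found at 2 mismatches, fewer mismatches or a single list can only give 0. A wider reach of 500 bp between peaks cannot lose a site that already overlaps. The count of members with a peak was 1 under every distance, start site and width setting tried and without either replicate. The 3 peaks in the region fell to 1 when peaks below the median width of their list were left out, and ranged from 1 to 2 when a replicate was left out, so the inter-cluster peak rests on replicate 2 alone. When 50% of each peak had to be covered, 0 sites were shared in place of 1, since a 155-bp peak cannot cover that share of a 1379-bp peak. With 3 mismatches, 1 peak held RE1 in place of 0 and 1 match in the region lay under a peak. The second of these values, and the count of 29 members with a CTCF match at 2 mismatches, were chosen after the data were seen. No paired analysis was possible because there was a single group and no contrast. Without scores or depth, the calling threshold could be varied only through peak width.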

Other observations

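Between neighbouring peaks of replicate 1, the stretch from 36744542 to 37806358 on chromosome 18 was free of peaks for 1.06 Mb and contained the 5′ ends of 66 protein-coding genes, 54 of them clustered protocadherins. Of the 4257 stretches between neighbouring peaks in that list, 615 were longer but only 16 contained more protein-coding 5′ ends, and the median stretch contained 2. In replicate 2 the inter-cluster peak divided this part of the chromosome. The stretch before it was 0.657 Mb long with 32 protein-coding 5′ ends, including all 14 Pcdha genes, and the stretch after it was 0.588 Mb long with 43, including 41 members of Pcdhb and Pcdhg. Those 41 include Pcdhgc3, whose 5′ end lay 102 bp before the peak that ends the stretch. Of the 4144 stretches in replicate 2, 54 contained more protein-coding 5′ ends than the stretch before the inter-cluster peak, and 32 contained more than the stretch after it.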
